A study of Lemna aequinoctialis with 6 samples.

Results

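UDP-glycosyltransferases that act on small molecules were examined in the duckweed Lemna aequinoctialis, a tiny plant that floats on fresh water, after treatment with indole-3-propionic acid (IPA), which has the indole ring of natural auxin on a longer acid side chain. The members were the 14 transcripts, of the 5093 that the authors had listed as changed, whose description named a UDP-glycosyltransferase, a glucosyltransferase or a numbered UGT. Descriptions with words for flavonoid, anthocyanin, cytokinin, sterol, phenylpropanoid, cell wall, starch, glycoprotein, dolichol or indole acceptors were left out. The 14 transcripts belonged to 12 Trinity genes (Trinity is an assembler that joins reads into transcripts, with an _i number for each isoform), out of 81787 transcripts of 28620 genes in the table of all transcripts.

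RNA was sequenced from 3 control samples and 3 samples treated with IPA, each from ground lyophilised plants, with poly(A) RNA selected by a stranded kit. The study's title concerns growth and the yield of useful metabolites in culture. The sources used here do not give the strain, dose, duration or vehicle, nor do they state that the samples of a group were grown apart. P-values therefore rest on a spread among samples that could be technical alone. Values are the authors' normalised read counts, in which 1 read has a worth of its own in each library and library totals are not made equal, and are given as mean ± SD with n = 3.

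Family 1 glycosyltransferases move a sugar, usually glucose, from a UDP-sugar onto a small acceptor. The acceptors include hormones, phenolics, terpenoids and foreign compounds, and the product is as a rule more soluble and can be stored in the vacuole. A conserved motif near the carboxyl end binds the UDP-sugar, while the amino-terminal part differs more between members and bears on acceptor choice. In plants that have been studied, sugar conjugation is a main way of inactivating an excess of auxin, alongside conjugation to amino acids by GH3 enzymes. Names in the description column are those of the closest UniProt protein, often from a distant species, and the acceptor of a duckweed enzyme cannot be read from its name.

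The authors' own contrast of IPA with control chose the members, so their differences are described here and not tested. In the authors' deposited table every listed transcript had an FDR under 0.05 and an absolute log2 fold change of at least 1.00. By these values 12 of the 14 members were higher in IPA and 2 were lower. The authors' list as a whole held 2586 transcripts higher and 2507 lower, which is 3.16% and 3.07% of all transcripts and 6.23% in all. The member just inside the fold limit was the Dol-P-Glc alpha-1,2-glucosyltransferase, at 1.07 in the authors' deposited table, and the member just inside the FDR limit was the 7-deoxyloganetin glucosyltransferase, at 0.0478 in the authors' deposited table. Among the unlisted isoforms of the same genes, TRINITY_DN459_c0_g1_i21 had the largest log2 change on the scale used below, 0.97 ± 0.32 (SE). The authors gave no fold change for unlisted transcripts, so nearness to their limit is not known. By ratio of means i21 stood at 1.88, under TRINITY_DN7059_c0_g1_i12 at 2.35, which has low values.

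The libraries held 30149649 to 45233584 recovered reads, and 1 read was worth 0.0205 to 0.0318 normalised reads. The 20 most abundant transcripts took 15.9 to 35.2% of reads in control and 7.84 to 10.1% in IPA. The labelled plant tissue was checked on chlorophyll a-b binding proteins and the small subunit of RuBisCO, for which the authors' list held 47 transcripts. Their summed level was 1515 to 2306 in control and 6178 to 8545 in IPA. All 47 passed as rising in limma at an FDR of 0.05, where 4.49% of all transcripts did. The list holds only transcripts called changed, so unchanged ones of these kinds could not appear. The part of the difference in summed level in the results below was not tested. Words for bacterial or fungal markers matched 0 transcripts of that list, which covers only transcripts called changed. Log2 changes below are IPA over control ± SE from limma on log2(value + 0.5), a scale that understates the change of transcripts with low values. In bulk RNA, fewer cells of a type and less RNA per cell cannot be told apart.

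Both members named after C-glucosyltransferases, enzymes that join glucose through a carbon bond, were higher in IPA. UDP-glycosyltransferase CGT (TRINITY_DN63618_c0_g1_i1), whose namesake in rice makes C-glucosides of flavonoid precursors, stood at 5.91, 13.9 and 14.6 in control 1, 2 and 3 and at 25.1, 33.4 and 25.8 in IPA 1, 2 and 3. The groups did not overlap, and control 1 lay well under the other controls. The means were 11.5 ± 4.85 and 28.1 ± 4.64, a ratio of 2.44 (log2 1.34 ± 0.31). UDP-glycosyltransferase 708C1 (TRINITY_DN459_c0_g1_i7), named after a buckwheat enzyme of the same kind, stood at 0.935, 3.72 and 5.51 in control and at 11.4, 17.6 and 12.9 in IPA. Control 1 was again the lowest, 5.89 times under control 3, and the groups were apart. The means were 3.39 ± 2.31 and 13.98 ± 3.25, a ratio of 4.12 (log2 2.10 ± 0.47).

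UGT family 73 supplied 5 of the 14 members, and in Arabidopsis several enzymes of this family answer to stress, pathogens and foreign compounds. The family member with the most reads was UDP-glycosyltransferase 73C3 (TRINITY_DN112111_c0_g1_i1), at 10.7, 8.78 and 7.14 in control and at 17.2, 26.8 and 28.1 in IPA. Its lowest IPA library lay 1.61 times above its highest control. The means were 8.88 ± 1.79 and 24.1 ± 5.97, a ratio of 2.71 (log2 1.37 ± 0.23).

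UDP-glycosyltransferase 73C5 (TRINITY_DN70967_c0_g1_i1) is named after an Arabidopsis enzyme that glucosylates brassinosteroids and the fungal toxin deoxynivalenol. It was at 0, 0 and 0.0229 in control 1, 2 and 3, which is 1 read in all, and at 0.402, 0.348 and 0.470 in IPA, from 14, 17 and 19 reads. All control values lay under the worth of 3 reads in their own library, and the IPA values agreed closely among themselves. The ratio of the pooled reads, scaled for depth, was 43.6, with an exact 95% interval of 7.48 to 1757 that covers counting error only. The log2 change on the log2(value + 0.5) scale was 0.83 ± 0.17 and depends on the pseudocount.

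UDP-glycosyltransferase 73B3 (TRINITY_DN15911_c0_g1_i1), named after an Arabidopsis enzyme linked to the response to Pseudomonas, was at 0.211, 0.318 and 0.823 in control and at 0.804, 1.74 and 1.90 in IPA. It was the sole member whose groups overlapped, since control 3 lay above IPA 1. The means were 0.451 ± 0.327 and 1.48 ± 0.593 (log2 1.06 ± 0.30). Its other isoform, which the authors did not list, stood at 0.826 on average in control and 1.66 in IPA (log2 0.71 ± 0.26).

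UDP-glycosyltransferase 73E1 was the name of both isoforms of 1 gene, TRINITY_DN24065_c0_g2, and these went opposite ways. Isoform i2 was at 2.20, 0.954 and 0.457 in control and at 0.0862, 0.205 and 0.346 in IPA (log2 -1.14 ± 0.34). Isoform i1 was at 0.664, 0.127 and 0.183 in control and at 1.01, 0.921 and 1.33 in IPA (log2 0.99 ± 0.26). In each isoform the groups were apart, and control 1 was the highest control of both. Isoform i1 held 23.2, 11.8 and 28.6% of the reads of the gene in control and 92.1, 81.8 and 79.4% in IPA. The sum of both isoforms was 2.87, 1.08 and 0.640 in control and 1.09, 1.13 and 1.68 in IPA, with overlapping groups and a log2 change of -0.04 ± 0.37. A neighbouring gene of the same assembly component, TRINITY_DN24065_c0_g1_i1, had 0.182 ± 0.164 in control and a mean of 0.254 in IPA.

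**Figure D1:**
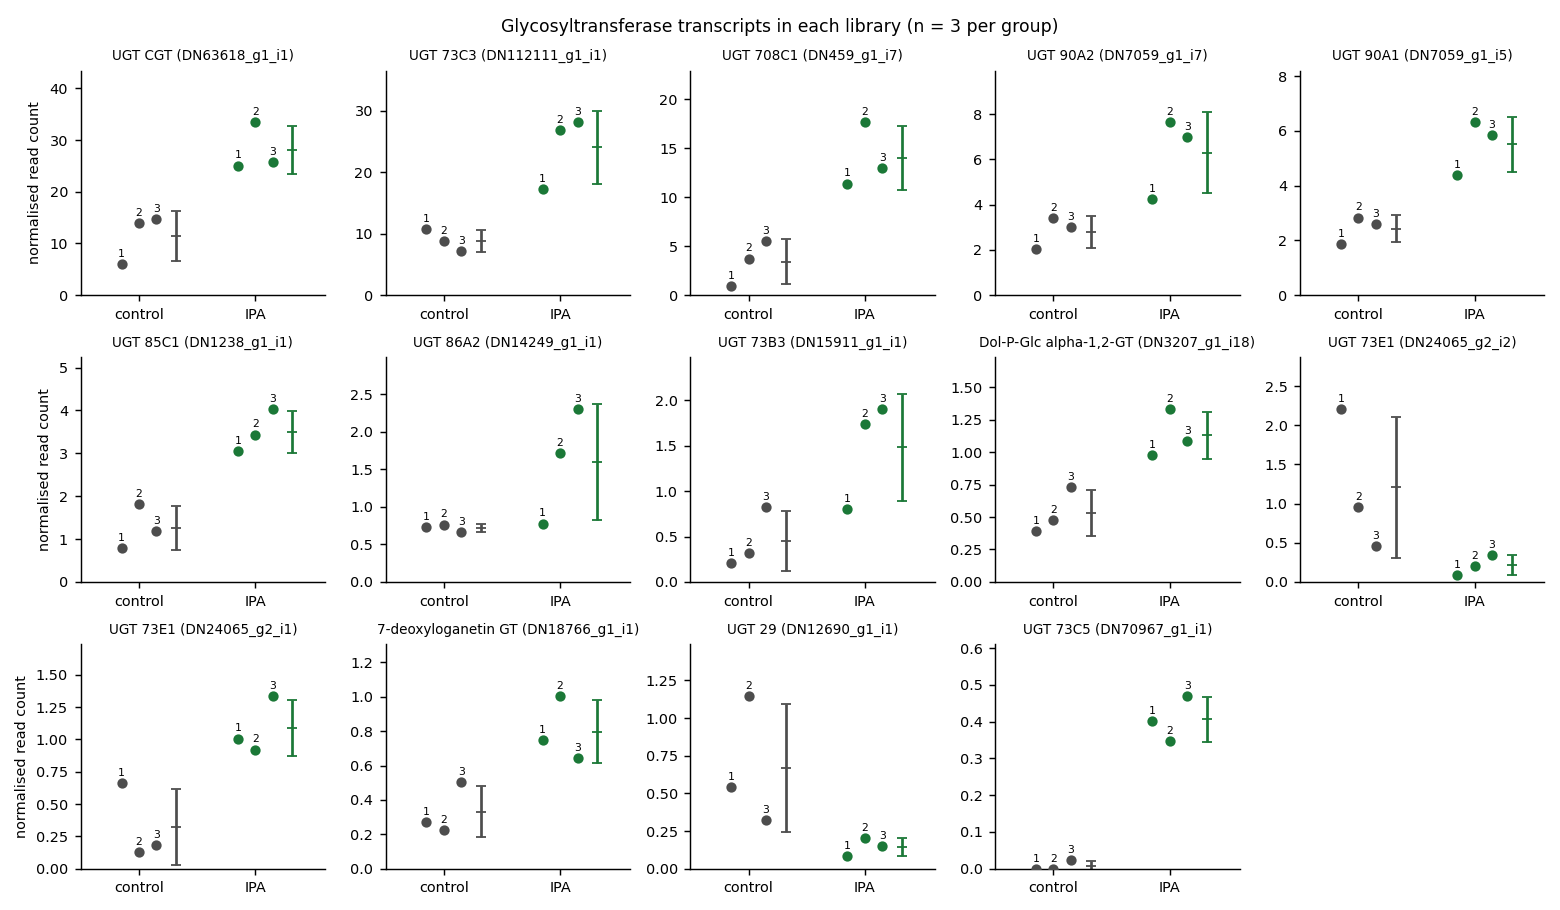
Normalised read count (y axis, from 0, a separate scale in each panel) of the 14 member transcripts in control (grey) and IPA (green) libraries, with points numbered by replicate and a bar for the mean ± SD (n = 3). In 11 panels every IPA point lies above every control point, in 2 every IPA point lies below, and for UGT 73B3 the groups overlap.

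Among the members not described above, those named after enzymes of terpenoid glycosides were higher in IPA in 2 cases and lower in 1. UDP-glycosyltransferase 85C1 (TRINITY_DN1238_c1_g1_i1), a name from Stevia, in which related enzymes build sweet steviol glycosides, was at 0.785, 1.81 and 1.19 in control and at 3.04, 3.44 and 4.03 in IPA. Its groups were apart, with means of 1.26 ± 0.518 and 3.50 ± 0.495, a ratio of 2.78 (log2 1.22 ± 0.24). The 7-deoxyloganetin glucosyltransferase (TRINITY_DN18766_c0_g1_i1), whose namesake acts in the synthesis of iridoids, was at 0.272, 0.223 and 0.503 in control and at 0.747, 1.00 and 0.643 in IPA. These values rest on 7 to 49 reads a library, and the lowest IPA value was 1.28 times the highest control (log2 0.65 ± 0.21).

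UDP-glucosyltransferase 29 (TRINITY_DN12690_c0_g1_i1), named after a ginseng enzyme that extends the sugar chain of ginsenosides, was at 0.543, 1.15 and 0.320 in control and at 0.0862, 0.205 and 0.148 in IPA. The IPA values rest on 3, 10 and 6 reads, the groups were apart, and the control mean was 4.57 times the IPA mean (log2 -0.80 ± 0.26). The other isoform of the gene, i2, was not listed and stood at 0.656 on average in control and 1.02 in IPA (log2 0.41 ± 0.25). Isoform i1 held 36.7, 63.2 and 46.7% of the reads of the gene in control and 10.7, 16.1 and 10.3% in IPA. As with 73E1, the sum over isoforms moved little, from 1.33 ± 0.579 to 1.17 ± 0.326 (log2 -0.09 ± 0.29).

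The remaining named enzymes, whose acceptors are less well known, were all higher in IPA. UDP-glycosyltransferases 90A2 and 90A1 were the names of isoforms i7 and i5 of a single gene, TRINITY_DN7059_c0_g1, so they are not separate loci in this assembly. Isoform i7 was at 2.02, 3.40 and 3.00 in control and at 4.25, 7.64 and 6.97 in IPA, a ratio of means of 2.24 (log2 1.02 ± 0.25). Isoform i5 was at 1.87, 2.83 and 2.58 in control and at 4.37, 6.30 and 5.83 in IPA, a ratio of 2.26 (log2 1.04 ± 0.22). Both isoforms shared an order of libraries within control, lowest in control 1 and highest in control 2, and both were lowest in IPA 1 and highest in IPA 2. Their 3 unlisted isoforms had log2 changes of 0.63 to 0.80, and the sum over all 5 went from 9.80 ± 3.00 to 19.95 ± 4.20 (log2 1.02 ± 0.26).

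UDP-glycosyltransferase 86A2 (TRINITY_DN14249_c0_g1_i1) was at 0.724, 0.763 and 0.663 in control and at 0.776, 1.72 and 2.30 in IPA. Control was tight, with a coefficient of variation of 7.03%, while IPA 1 lay only 1.02 times above the highest control. The difference thus rested on IPA 2 and IPA 3 (log2 0.71 ± 0.28).

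The last member goes against the label of the group. The Dol-P-Glc alpha-1,2-glucosyltransferase (TRINITY_DN3207_c0_g1_i18) is named after the enzyme that adds the final glucose to the lipid-linked oligosaccharide for N-glycosylation, and its donor is dolichyl phosphate glucose, not a UDP-sugar. It was at 0.392, 0.477 and 0.732 in control and at 0.977, 1.33 and 1.09 in IPA (log2 0.67 ± 0.21), with groups apart. It held only 0.817 to 1.53% of the reads of its gene, which had 10 isoforms, and the 2 other isoforms in the authors' list, i24 and i28, were described there as a C-terminal domain small phosphatase. The sum over the gene went from 46.8 ± 1.90 to 90.3 ± 6.65 (log2 0.94 ± 0.14), so the higher value in IPA was shared by isoforms with another description. Without this member the group held 13 transcripts, 11 of them higher in IPA.

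Over the group, the median log2 change was 1.01 for all 14 members, against 0.02 over the 78722 transcripts tested, a gap that the choice of members from a list of changed transcripts brings with it. The 12 higher members had a median of 1.03, or 1.05 with 73C5 set at its ratio of reads. All 14 members passed the filter on low counts. In limma's test over all transcripts with Benjamini-Hochberg adjustment at 0.05, 8 of 14 passed as rising, where 4.49% of all transcripts did (8.37% in either direction). They were CGT, 708C1, 73C3, 73C5, isoform i1 of 73E1, 85C1, 90A1 and 90A2, in 7 genes. Neither of the 2 lower members passed in limma, where 3.87% of all transcripts passed as falling. All 14 members had an unadjusted limma p under 0.05, as had 20892 of the 78722 transcripts tested. edgeR's quasi-likelihood test on recovered reads passed 7 rising and 1 falling, where 4.21% and 3.91% of all transcripts passed. DESeq2 passed 8 and 2, where 6.39% and 7.03% passed, and gave 73C5 no FDR. In these tests the rule had used the same contrast, so nothing is read from the counts.

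How many members passed depended on single libraries. With control 1 left out, 8 members passed limma as rising, where 5.22% of all transcripts did. With control 2 left out only 85C1 passed, where 1.17% of all transcripts did, and with control 3 left out 10 members passed, against 6.47%. Among the treated libraries, 6 members passed when IPA 1 was left out (2.84% of all transcripts), 0 when IPA 2 was (0.861%) and only 73C3 when IPA 3 was (1.84%). Without IPA 2, 10 members had an unadjusted limma p under 0.05 in the rising direction and 2 in the falling direction. The share of all transcripts under that limit in this fit is not given here, so nothing is read from these counts. Both lower members passed as falling when control 3 was left out, where 6.76% of all transcripts did. The background thus moved with the members' counts. The sign of all 14 log2 changes was the same in each of these fits. With library totals in place of the authors' scaling, 12 members passed as rising and 1 as falling, where 12.6% and 2.39% of all transcripts did. The median over all transcripts then moved by 0.25 log2, and the share of rising calls over all transcripts was 84.1% against 53.7%.

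**Figure D2:**
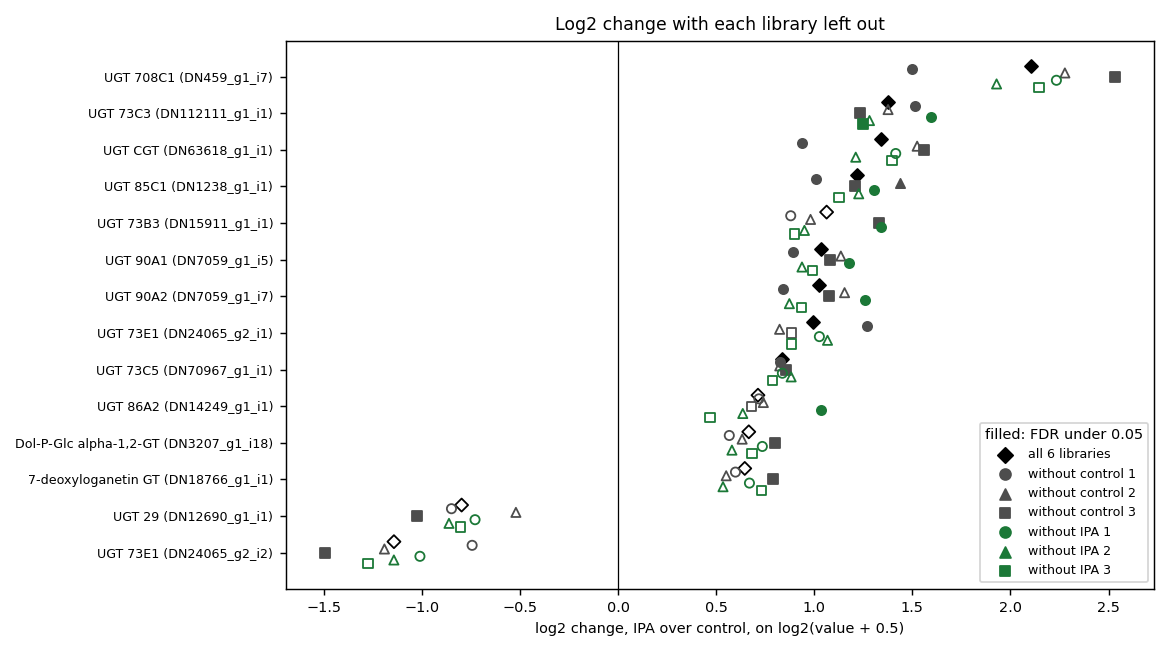
Log2 change (x axis, IPA over control, on log2(value + 0.5)) of each member with all 6 libraries (black diamonds) and with each control (grey) or IPA (green) library left out, filled where limma's FDR was under 0.05. All points of a member lie on one side of 0, while filled points are fewest without IPA 2, IPA 3 or control 2.

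The members varied more among control than among IPA samples. The median coefficient of variation was 43.6% in control and 23.3% in IPA, against 25.2% and 16.9% over all transcripts tested, and it was larger in control for 11 of 14 members. The share of all transcripts with a larger coefficient in control is not given here. A mean under 2 normalised reads was seen in 8 of the 14 members, and the part of low counts was not tested. Of the 12 members that were higher in IPA, 7 had their lowest control value in control 1 alone and 9 their lowest IPA value in IPA 1. The highest IPA value was in IPA 2 for 6 of them and in IPA 3 for the other 6. Groups did not overlap for 11 members higher and 2 lower in IPA, where 16.6% and 16.3% of all transcripts were so placed. IPA 1 was the least deeply sequenced library, at 30149649 reads, and its part in this order was not tested.

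The isoforms that the authors did not list show how far a listed change extended over its gene. Of the 12 genes 6 had a single transcript, and the others had 18 transcripts beside the members, 16 of them outside the authors' list. All 16 had a positive log2 change, of 0.28 to 0.97 with a median of 0.68. In 10 the groups did not overlap, where 16.6% of all transcripts lay apart with IPA higher. Most of the 10, namely i2, i4, i6, i11, i25 and i27, belonged to TRINITY_DN3207_c0_g1, the gene of the Dol-P-Glc member that goes against the label. The rest were i16 and i21 of TRINITY_DN459_c0_g1, i9 of TRINITY_DN7059_c0_g1 and i2 of TRINITY_DN15911_c0_g1. In limma 3 of the 16 passed, all rising and all in TRINITY_DN3207_c0_g1, where 4.49% of all transcripts passed as rising. These isoforms share sequence and reads with the members, and isoforms that passed the authors' limits are not among them, so they are no independent set.

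In the gene of 708C1 the member changed by more than its other isoforms. The member passed the authors' limits on this contrast and the others did not, so this difference follows in part from the choice. Its 4 unlisted isoforms had log2 changes of 0.42 to 0.97, against 2.10 for i7. Isoform i7 held 3.11, 4.62 and 7.11% of the reads of the gene in control and 12.8, 16.1 and 13.2% in IPA, without overlap. The sum over the gene was 30.1, 80.5 and 77.6 in control and 88.9, 110 and 98.2 in IPA (log2 0.78 ± 0.33), so control 1 was low in the whole gene. In TRINITY_DN459_c0_g2, a second gene of the same assembly component with no description here, isoform i1 was at 1.02 ± 0.572 in control and 3.19 ± 0.663 in IPA. Isoform i3 of that gene, with a like number of reads, was at 1.85 ± 0.594 and 2.39 ± 0.783, with overlapping groups. After summing isoforms, 6 of the 12 genes passed limma's FDR of 0.05 as rising, against 5.65% of the 27203 genes tested. They were the genes of CGT, 73C3, 73C5, 85C1, 90A1 with 90A2, and the Dol-P-Glc enzyme, while the 708C1 gene did not pass (limma FDR 0.161).

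**Figure D3:**
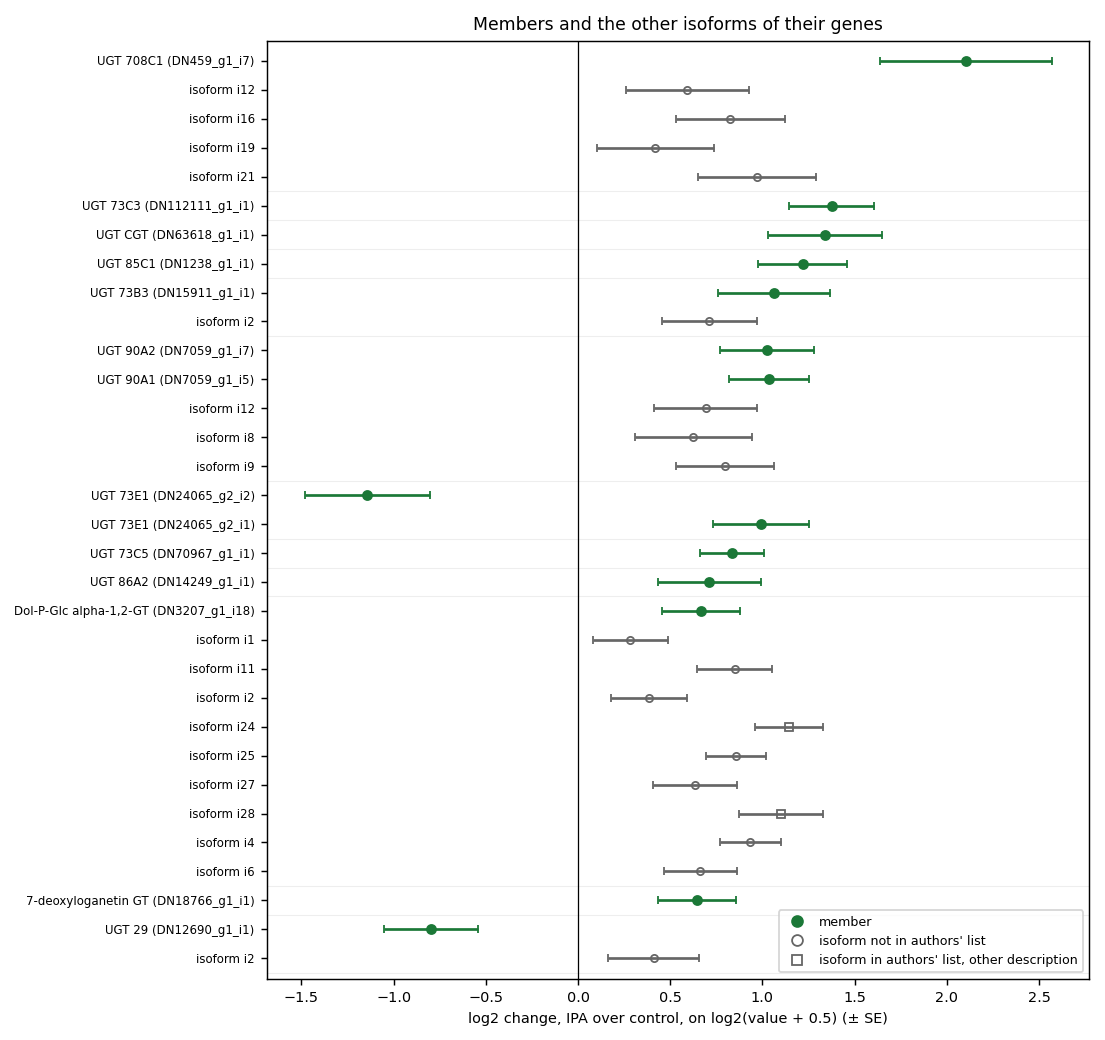
Log2 change (x axis, IPA over control ± SE, limma) of the 14 members (filled green) and of the other 18 isoforms of their genes (open grey, squares for the 2 that the authors listed), grouped by gene. Open symbols all lie above 0, and both members left of 0 belong to genes with another isoform to the right.

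**Figure D4:**
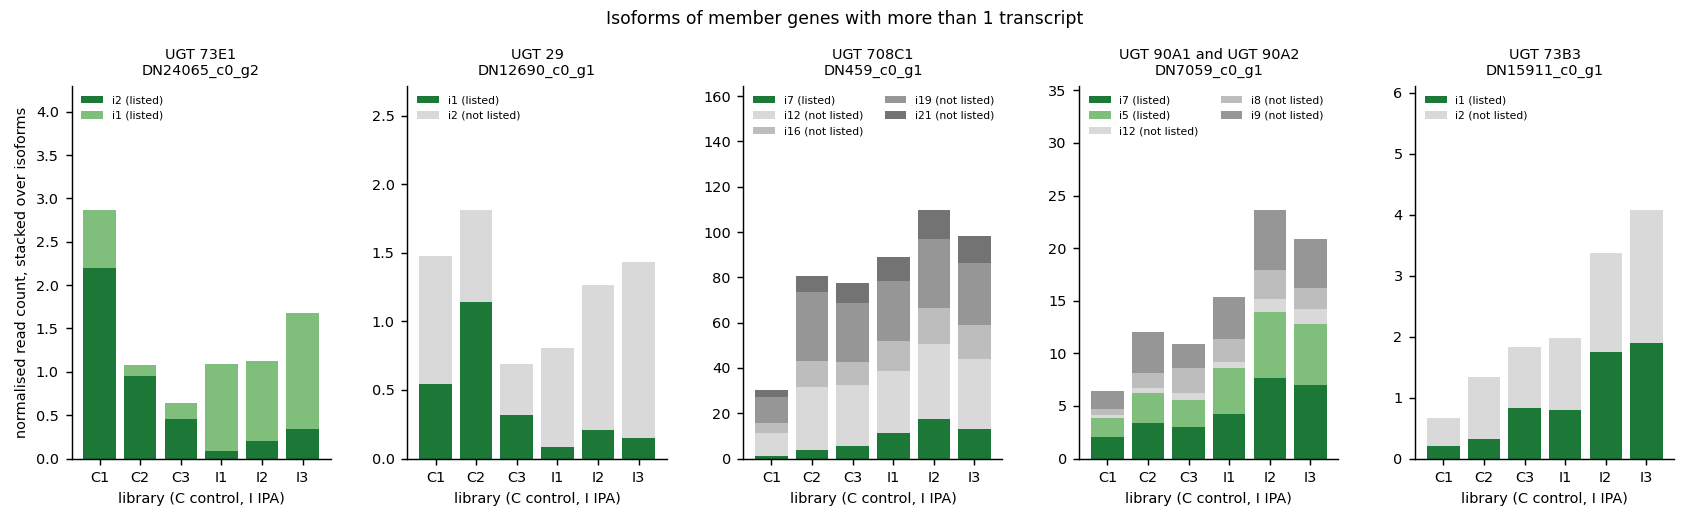
Normalised read count by library (y axis, from 0, stacked over isoforms) for 5 of the 6 genes with more than 1 transcript, with listed isoforms in green and unlisted ones in grey, and control (C1 to C3) and IPA (I1 to I3) on the x axis. In 73E1 and UGT 29 the makeup changes while the total does not separate the groups, and in 708C1 isoform i7 grows from 3.11 to 7.11% of the total in control to 12.8 to 16.1% in IPA.

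Other steps around glycosylation were followed through lists matched on the same descriptions. These lists also hold only transcripts that the authors had called on these samples, so their counts are descriptions and give no independent evidence. Counts are of transcripts past limma's FDR of 0.05, where 4.49% of all transcripts rose and 3.87% fell. Of 7 glycosyltransferase transcripts for flavonoid, anthocyanin or sterol acceptors 6 rose and 1 fell, with a median log2 change of 1.25. The sterol glucosyltransferase UGT80B1, which makes membrane steryl glucosides, gave 4 of them, and its leading isoform rose from 12.6 ± 0.767 to 34.6 ± 6.57 (log2 1.40 ± 0.19, limma FDR 0.00247). The sole fall was UDP-glucose flavonoid 3-O-glucosyltransferase 7 (TRINITY_DN910_c0_g1_i15, log2 -0.93), named after its values were seen, a call lost with library totals and when control 2, IPA 1 or IPA 2 was left out.

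Supply of the sugar donor gave a mixed picture. In the UDP-sugar list 7 of 20 transcripts rose and 4 fell, with a median log2 change of -0.78. DESeq2 called 7 rising and 12 falling, where 6.39% and 7.03% of all transcripts were called. All 6 hexokinase transcripts, of an enzyme that phosphorylates glucose, rose, and they belonged to a single gene whose sum went from 80.4 ± 17.5 to 173 ± 12.1 (log2 1.12 ± 0.19, limma FDR 0.00951). With IPA 2 left out limma called none of the 6 hexokinase transcripts, and with IPA 3 left out it called 2. The rising count of the whole list was 4 with control 2 or IPA 1 left out, 2 with IPA 3 left out, and no call of either direction was left in limma with IPA 2 left out. The enzyme that makes UDP-glucose itself, UTP--glucose-1-phosphate uridylyltransferase, gave 10 listed transcripts of a single gene, named after their values were seen, of which 4 fell in limma and 9 in DESeq2. The sum over the 33 isoforms of that gene went from 72.1 ± 25.5 to 37.4 ± 4.06 (log2 -0.89 ± 0.24, limma FDR 0.0439). The count of its falling transcripts was 2 when control 1 was left out, 7 for control 3 and 1 for IPA 3. All 4 calls were lost when control 2, IPA 1 or IPA 2 was left out. Of all transcripts 6.76% fell without control 3, against 3.87% with all libraries. Calls in either direction over all transcripts went from 6587 to 1519, 3570 and 1293 without control 2, IPA 1 or IPA 2.

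Lists of enzymes and carriers that can act on glycosides gave the following counts, with all 6 libraries in the fit. Of 9 acyltransferase and serine carboxypeptidase-like transcripts 8 rose, led by phenolic glucoside malonyltransferase 2, which adds malonate to phenolic glucosides. It went from 23.6 ± 4.29 to 62.5 ± 9.48 (log2 1.39 ± 0.20, limma FDR 0.00347). Serine carboxypeptidase-like 45 and 35 each gave 2 of the rises, and whether these act on glycosides cannot be read from their names. Isoform i6 of TRINITY_DN2130_c1_g1 (Serine carboxypeptidase-like 11), named after its values were seen, also rose. The sum over its gene went the other way, from 155 ± 120 to 73.9 ± 7.34 (log2 -0.77 ± 0.45, limma FDR 0.293). Its other listed isoform, i11, had a log2 change of -0.97 and did not pass. Of 12 transcripts for MATE carriers, which move metabolites across membranes, 7 rose. All 12 did with library totals, where 12.6% of all transcripts rose. The list was led by 3 isoforms of DETOXIFICATION 42, a name from Arabidopsis, where it carries citrate, and the sum over its gene went from 41.5 ± 3.23 to 129 ± 2.21 (log2 1.63 ± 0.14, limma FDR 0.000651). Of 30 transcripts matched as beta-glucosidases 18 rose and 7 fell, but 19 of the 30 were glucan endo-1,3-beta-glucosidases, which cut wall glucan and not glycosides. Beta-glucosidases can release an aglycone from its glucoside. Of the 7 transcripts whose description begins with that name, 4 rose. They were 3 of the 5 listed transcripts of Beta-glucosidase 6, all of a single gene, and Beta-glucosidase-like SFR2, which is named only as like a beta-glucosidase. The transcript of Beta-glucosidase 3 had a log2 change of -0.76 and did not pass. The lowest FDR of the list was that of glucan endo-1,3-beta-glucosidase 4, isoform i28 of TRINITY_DN3619_c0_g1, which rose from 2.56 to 8.18 on average, while the sum over its gene went from 24.0 ± 3.49 to 61.2 ± 6.55 (log2 1.34 ± 0.17). The isoform with the next lowest, i8 of glucan endo-1,3-beta-glucosidase 13, fell from 143 to 32.2 (log2 -2.05 ± 0.26).

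The other routes of conjugation went opposite ways. Probable indole-3-acetic acid-amido synthetase GH3.1, which joins auxin to amino acids, went up from 58.9 ± 4.76 to 151 ± 39.4, and limma called it (log2 1.33 ± 0.21, FDR 0.00604). A second gene of that name rose from 4.96 ± 1.29 to 10.2 ± 2.94 (log2 0.96 ± 0.25, limma FDR 0.0414). The second call was lost in 5 of 6 fits with a library left out, the exception being that without IPA 1. The list held 3 transcripts, the last being IAA-amino acid hydrolase ILR1-like 1, named as an enzyme that splits such conjugates. It went from 1.06 ± 0.433 to 2.20 ± 0.375, with groups apart, and did not pass (log2 0.82 ± 0.24, limma FDR 0.0580). All 3 were called with library totals and in DESeq2, where 12.6% and 6.39% of all transcripts rose. The sum over its gene had a log2 change of 0.34 ± 0.18. Of 23 glutathione S-transferase transcripts 13 fell and 1 rose, with a median log2 change of -1.22. DESeq2 called 21 falling, where 7.03% of all transcripts fell. Of the 16 in the tau class (the U enzymes), which handle foreign compounds, 12 fell. The gene of U15 and U17, TRINITY_DN7875_c0_g1, went from 28.2 ± 1.77 to 9.13 ± 0.175 over its isoforms (log2 -1.57 ± 0.16, limma FDR 0.00116). The count of falling glutathione S-transferases was 4 with control 2 left out, 21 with control 3 left out, and 8 and 7 with IPA 1 or IPA 2 left out. Over all transcripts, calls in either direction went from 6587 to 1519, 3570 and 1293 without control 2, IPA 1 or IPA 2. Of all transcripts 6.76% fell without control 3, against 3.87% with all libraries. Without IPA 2 the rising counts were 1 for acyltransferases, 4 for MATE carriers and 5 for beta-glucosidases. With control 2 left out they were 3, 4 and 8, and with IPA 3 left out they were 5, 4 and 10. Of all transcripts 0.861% rose without IPA 2, 1.17% without control 2 and 1.84% without IPA 3, against 4.49% with all libraries. The background thus moved with these counts too. The falling count of beta-glucosidases was 4 with control 2 or IPA 2 left out. Of the 7 transcripts whose description begins with beta-glucosidase, 2 rose with control 1 or IPA 3 left out. With control 2, IPA 1 or IPA 2 left out 1 of them rose. Of the tau class, 4 fell with control 2 left out and 7 with IPA 2 left out. Calls over all transcripts were also fewer without control 2 or IPA 2, as given above.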

How the data were processed

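The members and lists were chosen with earlier results of these data known. The authors deposited 2 tables without transcript lengths or sequences, so levels are not compared between genes and positions are not given. BWA, featureCounts, edgeR, FastQC and Trimmomatic are named, without versions or roles, per the submitters' processing notes. The deposited signal per library is a normalised read count: 100% of values were whole reads to within 0.01 once divided by the smallest step, so reads could be recovered. Per the file headers, the authors' list has columns for the log2 fold change and log2 CPM, for the score of a likelihood-ratio test, and for its p-value with FDR. Columns of other samples numbered 0.

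Low transcripts were removed with edgeR 4.0.16 (filterByExpr, minimum count 10, minimum total 15, on recovered reads), and 78722 remained. The log2(value + 0.5) was tested with limma 3.58.1 (trend, robust) in R 4.3.3, IPA against control, with Benjamini-Hochberg adjustment at 0.05, and the procedure was tested on simulated data. DESeq2 1.42.0 and edgeR's quasi-likelihood test, which called 10358 and 6393 transcripts, were alternatives, as were other scalings, pseudocounts of 0.1 and 1, filters, a replicate block, sums over isoforms and leaving out each library. Named were the isoform with most reads of each gene by level and change, isoforms going both ways, and up to 3 transcripts with the lowest FDR of each list; others are said to be named after their values were seen. Near-identical copies may share reads, and which copy changed is then uncertain.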

Additional observations from a re-analysis of the deposited data

How the results depend on the processing

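The 14 log2 changes kept their sign in every alternative in which they were tested. Of their comparisons with the limma call under alternatives, 155 stayed on the same side of FDR 0.05, 30 lost a call and 17 gained one. The 30 include 73C5 in DESeq2, which gave it no FDR, so that call was not judged. With library totals the calls were 11817 over all transcripts, 11 genes rising, 1 gene falling and 1 member falling. The quasi-likelihood test gave 1 falling member in 1 gene and a median of -2.28 for the lower members, and DESeq2 gave 10358 calls, 2 falling members in 2 genes and a median of -2.35. A pseudocount of 0.1 gave a median of -1.72. Summed over isoforms, calls numbered 2812 among fewer features, and the median of the lower members' genes was -0.065. For these the cause was not tested, beyond the fewer features. Leaving out a library gave 1293 to 10421 calls over all transcripts, 0 to 10 rising members in 0 to 9 genes, 0 to 2 falling members in 0 to 2 genes, and medians of 0.89 to 1.22 and -1.26 to -0.80. With the replicate number as a block, 4377 transcripts were called, and the fall of the flavonoid 3-O-glucosyltransferase 7 transcript was lost. Calls then fell from 4 to 2 for transcripts whose description begins with beta-glucosidase, for uridylyltransferase and for the falling side of the UDP-sugar list. The deviations of same-numbered samples correlated at -0.0874, 0.0818 and -0.134, and 2 of 6 samples correlated best with their own number, so the numbers were not taken to pair samples. At an average log2 CPM of at least 1, 6 members were tested and neither lower member was among them. Depth limits the low members: 73C5, the 7-deoxyloganetin enzyme, UGT 29, 73E1 and the Dol-P-Glc enzyme rest on at most 73 reads in any library.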
